A study of Mus musculus with 17 samples.

Results

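The p53 pathway was read from 10 genes in mouse B cells: Trp53, which encodes p53, and the direct p53 target genes Cdkn1a, Mdm2, Ccng1, Bbc3, Pmaip1, Trp53inp1, Sesn2, Phlda3 and Zmat3. The members were named by symbol, and all 10 were present among the 18554 gene symbols of the expression table. All 10 also passed the filter for testing, a level of at least 1 TPM in at least 2 libraries, which 9898 genes met. TPM is a transcript level corrected for gene length and scaled to a fixed total per library. The RNA-seq series held 17 libraries of polyA RNA from B cells of C57BL/6 mice, and the sample titles call every group old without giving an age. Libraries numbered 3 in each of WT, Sf3b1 MT and DM, 6 in Atm MT and 2 in DM-CLL. Titles of the DM and DM-CLL libraries name both Sf3b1 and Atm, so these groups carry both lesions, and CLL stands for chronic lymphocytic leukaemia in the series title. That title describes an Sf3b1 mutation expressed in B cells alone and a deletion of Atm, and it does not give the Cre driver, the changed residue or the deleted exons. The labels do not say whether each library came from a separate mouse, so the p-values below measure the spread between these libraries, which may be technical in part.

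p53 is a transcription factor that is held low in unstressed cells by the ubiquitin ligase Mdm2, itself a p53 target, and that accumulates after DNA damage. The kinase Atm senses double-strand breaks and phosphorylates p53 and Mdm2. Induction of p53 by this route is largely a matter of protein stability, so the Trp53 transcript and p53 activity need not move together. The comparisons below ask how the transcripts of p53 and its targets stood with and without the Atm lesion, in each Sf3b1 state, and then in the leukaemic cells.

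Promoter windows from RefSeq, assembly GRCm38.p6, run from 250 bases before to 50 bases after the annotated start and were available for 7 of the 10 members. They are printed for the 4 members whose window held the p53 decamer consensus, because p53 is known to bind DNA through pairs of such decamers. Both strands were searched for the decamer and for ACATGT, which holds a core found in many decamers and can overlap one. Capitals mark every match of either motif, and each sequence is written on the strand of its gene.
Trp53, chr11:69580109-69580408, plus strand: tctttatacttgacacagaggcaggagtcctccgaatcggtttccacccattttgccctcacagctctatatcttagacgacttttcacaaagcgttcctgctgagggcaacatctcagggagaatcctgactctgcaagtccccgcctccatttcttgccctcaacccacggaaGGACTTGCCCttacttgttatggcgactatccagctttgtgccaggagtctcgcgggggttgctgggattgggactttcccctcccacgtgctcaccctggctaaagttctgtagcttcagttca
Cdkn1a, chr17:29090729-29091028, plus strand: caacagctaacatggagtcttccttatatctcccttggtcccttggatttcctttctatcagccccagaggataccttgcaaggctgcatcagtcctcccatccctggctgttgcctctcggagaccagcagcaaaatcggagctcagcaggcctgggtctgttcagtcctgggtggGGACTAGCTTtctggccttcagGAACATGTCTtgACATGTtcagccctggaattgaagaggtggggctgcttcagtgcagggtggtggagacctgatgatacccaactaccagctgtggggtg
Mdm2, chr10:117710709-117711008, minus strand: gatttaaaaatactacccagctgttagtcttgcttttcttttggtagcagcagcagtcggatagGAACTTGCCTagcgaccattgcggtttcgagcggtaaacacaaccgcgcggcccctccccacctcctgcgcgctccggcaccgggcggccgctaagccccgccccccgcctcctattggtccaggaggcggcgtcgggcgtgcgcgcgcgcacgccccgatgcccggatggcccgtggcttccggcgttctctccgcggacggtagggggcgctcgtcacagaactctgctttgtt
Ccng1, chr11:40755237-40755536, minus strand: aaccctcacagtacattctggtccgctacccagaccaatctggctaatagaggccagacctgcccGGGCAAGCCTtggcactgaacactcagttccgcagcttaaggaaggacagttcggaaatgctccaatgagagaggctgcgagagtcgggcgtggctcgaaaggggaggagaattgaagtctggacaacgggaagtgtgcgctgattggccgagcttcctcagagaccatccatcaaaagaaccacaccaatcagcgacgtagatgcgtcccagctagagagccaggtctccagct
The printed Cdkn1a window, the first of 2 in the table, began its matches 73 bases before the start with GGACTAGCTT and held GAACATGTCT at 51 bases before it, a pair of decamers with at most 13 bases between them. The other Cdkn1a window, from an alternative start at chr17:29093519-29093818, held no match of either motif. In Mdm2 the match GAACTTGCCT lay 186 bases before the start, in Ccng1 the match GGGCAAGCCT lay 185 bases before it, and in Trp53 the match GGACTTGCCC lay 75 bases before it. A decamer match occurred in the windows of 9.55% of 27025 genes, and a pair as in Cdkn1a in 0.07% of them. ACATGT, found in the Cdkn1a and Phlda3 windows, occurred in those of 6.14% of genes. A match describes letters only, and p53 binding was not measured here.

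In GENCODE M21 on GRCm38 the gene Trp53 spans chr11:69580359-69591873, that of Cdkn1a spans chr17:29090976-29100727, that of Mdm2 spans chr10:117688875-117710758 and that of Ccng1 spans chr11:40748552-40755311. The 2 cell-death members lie at chr7:16308393-16318205 for Bbc3 and chr18:66458533-66465565 for Pmaip1. Trp53inp1 lies at chr4:11156431-11174379, Sesn2 at chr4:132492032-132510501, Phlda3 at chr1:135766119-135769136 and Zmat3 at chr3:32334792-32366014. Of the exonic bases of Cdkn1a, 273 (7.7%) are shared with an uncharacterised gene on the opposite strand, AC167363.2, and the libraries are not described as stranded, so reads of that stretch cannot be assigned. The table is summed per gene, and every level below is a gene level.

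The libraries were checked before the members were compared. The listed TPM summed to 43.1% to 59.7% of the full TPM total per library, and counts were not used here, so the depth of each library is unknown and no counting error can be given. B-cell markers (10 genes, among them Cd79a and Pax5) summed to between 2298 and 5358 TPM in all 17 libraries. Macrophage markers stood apart in Atm MT replicates 1 to 4, where the 11 listed of 12 markers summed to 869 to 1559 TPM, against 77.7 to 276 TPM in the other 13 libraries. DM-CLL replicate 4 held 7915 TPM of erythroid markers (6 of 9 listed) and 211 TPM of T-cell markers, against 20.0 TPM and 12.4 TPM in DM-CLL replicate 5. In bulk RNA, fewer cells of one type and less RNA per cell cannot be told apart. Atm itself is a weak check of the labels, because the deleted exons are not given and a gene-level sum would also count any exons outside them. Its mean was 7.64 ± 1.197 TPM (SD, n = 3) in WT, 7.50 ± 4.24 TPM (SD, n = 6) in Atm MT and 3.41 ± 0.789 TPM (SD, n = 3) in DM. Atm MT differed from WT by -0.13 in Atm (SE 0.31, limma adjusted p = 0.949), and exon levels were not examined. Atm MT replicate 6 had the highest Atm level of any library, 15.6 TPM.

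Loss of Atm was first read as 1 effect over both Sf3b1 states, the mean of the difference between Atm MT and WT and the difference between DM and Sf3b1 MT. None of the 10 members passed in this comparison (limma on log2(TPM + 1), Benjamini-Hochberg adjusted over all tested genes, threshold 0.05), against 1.5% of all genes. Mdm2 came closest, with a lower mean level in the libraries with the Atm lesion in both Sf3b1 states. Of the members, 1 had an unadjusted p under 0.05, against 16.4% of all genes. The median difference of the members was -0.03 on the log2 scale, beside -0.07 for all genes tested.

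Mdm2, the ligase that marks p53 for degradation, stood at 20.2, 18.4 and 12.5 TPM in WT and at 8.82, 9.06 and 9.96 TPM in Sf3b1 MT. In Atm MT its lowest, median and highest levels were 9.22, 12.7 and 15.8 TPM, and in DM the 3 libraries were at 6.20, 6.20 and 6.71 TPM. All 3 DM libraries lay below all 3 Sf3b1 MT libraries, whereas Atm MT overlapped WT. The Atm effect on Mdm2 was -0.44 (SE 0.14, 95% CI -0.74 to -0.14, limma adjusted p = 0.13). An exact two-sided permutation test of the Atm state within each Sf3b1 state, with 1680 arrangements, gave p = 0.00476 for Mdm2, unadjusted over the 10 members tested that way. The difference was -0.41 (SE 0.19) between Atm MT and WT and -0.48 (SE 0.21) between DM and Sf3b1 MT, with limma adjusted p-values of 0.415 and 0.412. The interaction term, which tests whether these differ, was -0.07 (SE 0.28, adjusted p = 0.991). With libraries weighted by how closely they followed the fit of their group, the Atm effect on Mdm2 passed, at -0.47 with a limma adjusted p of 0.0416. Under these weights 456 of all genes passed for the Atm effect, against 148 without them.

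Trp53 itself was at 19.1, 36.1 and 27.7 TPM in WT and at 38.2, 53.7 and 24.97 TPM in Sf3b1 MT. The Atm MT libraries ran from 29.6 TPM through a median of 40.9 TPM to 50.5 TPM, and the DM libraries were at 18.9, 35.7 and 34.3 TPM. All 4 groups overlapped. Atm MT exceeded WT by 0.57 (SE 0.26, adjusted p = 0.419), and DM differed from Sf3b1 MT by -0.37 (SE 0.30, adjusted p = 0.713) in limma. The interaction was -0.94 (SE 0.40), with an unadjusted p of 0.0317 and an adjusted p of 0.878. No gene of the 9898 passed for the interaction in limma, and 546 (5.52%) had an unadjusted p under 0.05, so a value of this size did not stand apart from the rest of the table. The neighbour Wrap53, whose first exon lies head to head with Trp53, passed in no comparison.

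**Figure D1:**
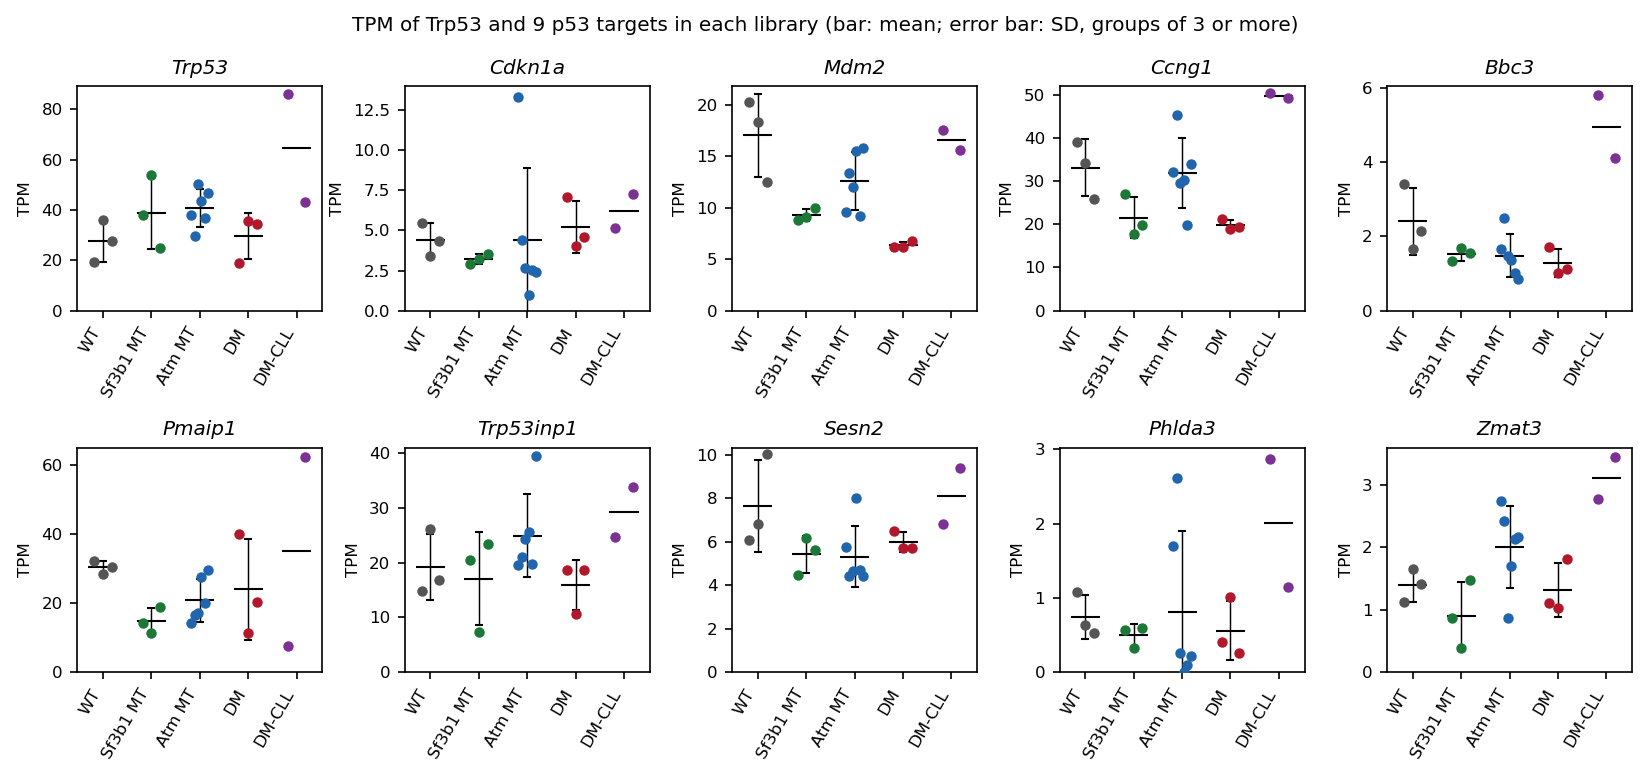
TPM of Trp53 and the 9 targets in every library, by genotype group, with each panel on its own linear axis from 0; horizontal bars are group means and error bars the SD of groups with 3 or more libraries, ending at 0 where they would pass it. Mdm2 shows DM below Sf3b1 MT without overlap, and Cdkn1a and Phlda3 show the wide spread of the Atm MT libraries.

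Cdkn1a encodes p21, the cyclin-dependent kinase inhibitor through which p53 stops the cell cycle. Its levels were 5.49, 3.42 and 4.32 TPM in WT and 2.88, 3.20 and 3.53 TPM in Sf3b1 MT. In Atm MT the 6 libraries ran from 0.99 TPM through a median of 2.59 TPM to 13.4 TPM, and in DM the libraries held 7.08, 4.03 and 4.60 TPM. The Atm MT group therefore contained both the lowest and the highest Cdkn1a level of the 17 libraries, while all 3 DM libraries lay above all 3 Sf3b1 MT libraries. Cdkn1a was the only member higher without overlap in DM than in Sf3b1 MT, as 3.88% of all genes were, and Mdm2 the only member lower without overlap, as 14.7% of all genes were. No member passed in DM against Sf3b1 MT, where 0.0404% of all genes were called higher and 0.0808% lower. Neither difference of Cdkn1a passed: it was -0.30 (SE 0.42, limma adjusted p = 0.891) between Atm MT and WT and 0.54 (SE 0.49, adjusted p = 0.743) between DM and Sf3b1 MT. Without Atm MT replicates 1 to 4, the libraries with high macrophage markers, the Atm effect on Cdkn1a went from 0.12 to -0.05. In replicates 1, 2, 3 and 4 the macrophage marker sums of 869, 1371, 1455 and 1559 TPM stood beside Cdkn1a at 13.4, 4.43, 2.65 and 0.99 TPM, and the part of these markers in the Cdkn1a values was not tested.

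Ccng1 encodes cyclin G1, a p53 target that recruits a phosphatase to Mdm2. It was at 39.0, 34.2 and 25.9 TPM in WT and at 26.9, 17.7 and 19.8 TPM in Sf3b1 MT. The Atm MT libraries ran from 19.9 TPM through 31.2 TPM to 45.2 TPM, and the DM libraries were at 21.3, 18.8 and 19.2 TPM. The groups with and without the Atm lesion overlapped in both Sf3b1 states, and the Atm effect was -0.08 (SE 0.16, limma adjusted p = 0.863). Its sign was reversed by median-ratio scaling, at 0.05.

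Sestrin 2, encoded by Sesn2 and known to restrain growth signalling through mTORC1, was at 6.09, 6.83 and 10.04 TPM in WT and at 4.47, 6.17 and 5.61 TPM in Sf3b1 MT. Its Atm MT libraries ran from 4.41 TPM through 4.67 TPM to 8.01 TPM, and its DM libraries were at 6.52, 5.72 and 5.72 TPM. Atm MT differed from WT by -0.45 (SE 0.19), with an unadjusted p of 0.0298 and a limma adjusted p of 0.351. Together with Trp53, Mdm2 and Bbc3, Sesn2 made 4 members with an unadjusted p under 0.05 in that comparison, against 11.3% of all genes. None of the 10 passed after adjustment, as 0.647% of all genes did (0.202% higher and 0.445% lower), and none separated the groups without overlap, as 1.62% of genes did upward and 3.48% downward.

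The cell-death members encode the BH3-only proteins Puma (Bbc3) and Noxa (Pmaip1), which neutralise anti-apoptotic Bcl-2 family proteins. Bbc3 was at 3.40, 1.67 and 2.14 TPM in WT, at 1.33, 1.68 and 1.54 TPM in Sf3b1 MT and at 1.72, 1 and 1.13 TPM in DM, with Atm MT between 0.84 and 2.50 TPM around a median of 1.43 TPM. All 4 groups overlapped. The Atm effect on Bbc3 was -0.30 (SE 0.16, limma adjusted p = 0.369), and the exact permutation test gave p = 0.0482, unadjusted over 10 members. Pmaip1 was at 32.1, 28.4 and 30.5 TPM in WT, at 14.1, 11.3 and 18.8 TPM in Sf3b1 MT and at 40.0, 11.4 and 20.3 TPM in DM. Its Atm MT libraries ran from 14.3 TPM through 18.5 TPM to 29.4 TPM, and the 3 DM libraries ran from near the lowest to above the highest level of WT, Sf3b1 MT and Atm MT. Pmaip1 differed by -0.57 (SE 0.30, limma adjusted p = 0.516) between Atm MT and WT and by 0.52 (SE 0.35, adjusted p = 0.642) between DM and Sf3b1 MT. Its interaction was 1.09 (SE 0.46, unadjusted p = 0.0321, adjusted p = 0.878).

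Trp53inp1 encodes a stress-induced nuclear protein that modifies p53 activity. It was at 14.8, 26.1 and 16.8 TPM in WT, at 20.4, 7.39 and 23.4 TPM in Sf3b1 MT and at 18.6, 10.7 and 18.6 TPM in DM, with Atm MT between 19.5 and 39.4 TPM around a median of 22.6 TPM. Zmat3, an RNA-binding zinc finger protein, was lower in level, at 1.12, 1.65 and 1.41 TPM in WT, at 0.86, 0.38 and 1.47 TPM in Sf3b1 MT and at 1.11, 1.03 and 1.82 TPM in DM. Its Atm MT libraries ran from 0.87 TPM through 2.15 TPM to 2.75 TPM. Phlda3, a pleckstrin homology protein that competes with Akt for membrane lipids, stayed near or below 1 TPM in WT, Sf3b1 MT and DM, with a highest value there of 1.08 TPM. In Atm MT it was listed at 0 in replicate 4 and reached 2.61 TPM in replicate 2. The Atm effect was 0.18 (SE 0.24) for Trp53inp1, 0.31 (SE 0.17) for Zmat3 and -0.04 (SE 0.27) for Phlda3, with limma adjusted p-values of 0.780, 0.415 and 0.965. At levels this low the added 1 TPM shrinks the differences of Phlda3, Zmat3 and Bbc3.

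**Figure D2:**
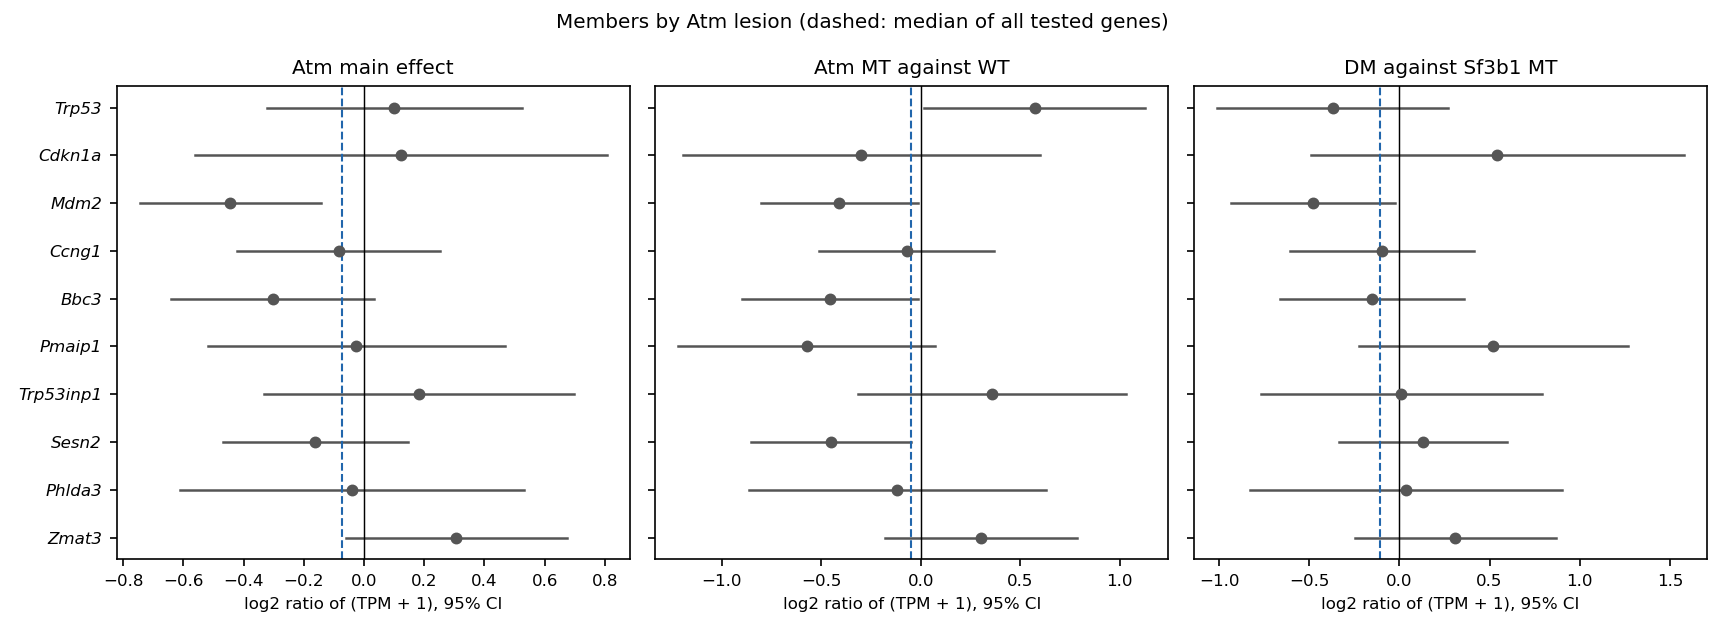
Differences of the 10 members on the log2(TPM + 1) scale with 95% confidence intervals, for the Atm effect over both Sf3b1 states, for Atm MT against WT and for DM against Sf3b1 MT; the dashed line is the median of all 9898 tested genes and the axes differ in range. No member passed the adjusted threshold, and the Mdm2 interval lies below 0 in all 3 panels.

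The other p53 targets formed a list of 47 genes, of which 43 were listed and 33 tested. For the Atm effect 0 were higher and 2 lower, Fas and Tap1, against 0.273% and 1.22% of all genes. The list's median was -0.06, beside -0.07 for all genes. Fas, the death receptor, was at 12.9 to 25.7 TPM in WT and at 3.92 to 8.22 TPM in Atm MT, with no overlap, but Sf3b1 MT at 5.25 to 8.01 TPM and DM at 3.37 to 8.44 TPM overlapped with Atm MT. In Atm MT against WT it fell by 1.51 (SE 0.27, limma adjusted p = 0.0144), the only gene of this list to pass there. The Fas call against WT was lost without WT replicate 1 (adjusted p = 0.119), without WT replicate 2 (0.0816) and without Atm MT replicates 1 to 4 (0.157). In DM against Sf3b1 MT, where the groups overlapped, Fas did not pass. Its mean difference over both Sf3b1 states was -0.88 (SE 0.20, limma adjusted p = 0.0424) and rests mainly on Atm MT against WT. This call for the mean was lost in 14 of 21 alternatives, with adjusted p-values of up to 0.160. The losses included median-ratio scaling (0.102) and each omission, from 0.0512 to 0.130, of WT replicates 1 and 2, Sf3b1 MT replicates 1, 2 and 3, Atm MT replicates 1, 2, 3 and 5 and DM replicates 1 and 6.

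Tap1, the peptide transporter of class I antigen presentation, was at 83.3 to 125 TPM in WT, 81.3 to 109 TPM in Sf3b1 MT, 47.1 to 80.6 TPM in Atm MT and 48.6 to 63.8 TPM in DM. Every library with the Atm lesion lay below every WT and Sf3b1 MT library. Tap1 fell by 0.70 (SE 0.14, limma adjusted p = 0.0220) for the Atm effect and also passed after median-ratio scaling, at -0.57 (adjusted p = 0.0124). The call was lost without WT replicate 1 (adjusted p = 0.0726), Sf3b1 MT replicate 1 (0.0731), Sf3b1 MT replicate 2 (0.0677), DM replicate 1 (0.0554) or DM replicate 3 (0.0598), and without Atm MT replicates 1 to 4 (0.0788). Platelet markers were also lower in Atm MT, at 0.97 to 8.71 TPM summed over 5 genes against 13.2 to 25.1 TPM in WT. All 7 natural killer markers were below 0 in that comparison, with a median of -0.90, and 1 passed in limma. All 11 macrophage markers were above 0 there, and none passed. For the Atm effect 1 of 8 T-cell markers, Cd3g, and 1 of 10 B-cell markers, Cd22, passed as lower and none as higher. The part of these shifts in the Fas and Tap1 differences was not tested.

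Upstream of p53, 24 regulators and kinases were examined and 23 tested. None passed for the Atm effect, for Atm MT against WT or for DM against Sf3b1 MT in limma, as 1.5%, 0.647% and 0.121% of all genes did. Their numbers at an unadjusted p under 0.05 were 0, 0 and 1, beside 16.4%, 11.3% and 11.1% of all genes. Atm itself differed by -0.30 (SE 0.24, adjusted p = 0.590) for the Atm effect. Mdm4, the partner of Mdm2 that blocks the p53 activation domain, was at 42.8, 49.4 and 36.9 TPM in WT and between 41.5 and 97.9 TPM in Atm MT around a median of 47.7 TPM. Its Atm effect was 0.18 (SE 0.22, adjusted p = 0.764). The cell cycle genes that p21 holds in check made a list of 24, all tested. None of the 24 passed in any comparison, and in Atm MT against WT 22 of 24 were below 0 with a median of -0.34, whereas in DM against Sf3b1 MT all 24 were above 0 with a median of 0.43. The values in DM against Sf3b1 MT rest on DM replicate 3, where their sum was 898 TPM against 295 and 285 TPM in DM replicates 1 and 6: without it 9 of 24 were above 0 and the median was -0.09, beside -0.06 for all genes. In Atm MT against WT, omission of WT replicate 1 brought the median to -0.12, with 9 of 24 above 0, omission of WT replicate 2 to -0.21, that of WT replicate 3 to -0.82 and that of Atm MT replicate 2 to -0.62. Their summed level overlapped in all groups, from 209 to 514 TPM in WT, 287 to 390 TPM in Sf3b1 MT, 184 to 566 TPM in Atm MT and 285 to 898 TPM in DM.

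In Sf3b1 MT against WT all 9 targets had differences below 0, though none passed, and 32.02% of all genes were above 0. Trp53inp1, at -0.26, changed sign in 1 of 22 alternatives, to 0.22. The median of the 10 members was -0.39 beside -0.11 for all genes. No member passed in limma, as 0.0707% of all genes did, and 3 had an unadjusted p under 0.05, against 10.6% of all genes. Mdm2 and Pmaip1 were lower without overlap in Sf3b1 MT than in WT, as 17.1% of all genes were, and none was higher without overlap, as 2.4% of genes were. Mdm2 differed by -0.78 (SE 0.21, adjusted p = 0.239), Pmaip1 by -1.02 (SE 0.35, adjusted p = 0.355) and Ccng1 by -0.60 (SE 0.24, adjusted p = 0.401). Trp53 differed by 0.46 (SE 0.30, adjusted p = 0.651). Among the other targets Cd80, a costimulatory ligand of B cells, fell by 2.11 (SE 0.30, limma adjusted p = 0.0129), from 15.3 to 22.1 TPM in WT to 2.70 to 4.39 TPM in Sf3b1 MT. The Cd80 call was lost without WT replicate 1 (adjusted p = 0.0717), WT replicate 2 (0.0584), Sf3b1 MT replicate 2 (0.0965) or Sf3b1 MT replicate 3 (0.0625). It was also lost after median-ratio scaling (0.0539) and in a fit of the compared groups alone (0.0574).

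In DM cells, which carry both lesions, Mdm2 was the 1 member that fell. It fell by 1.26 (SE 0.21, limma adjusted p = 0.0141) in DM against WT, from a mean of 17.01 ± 4.05 TPM (SD, n = 3) to 6.37 ± 0.294 TPM (SD, n = 3). The median of all genes in this comparison was -0.25, and relative to it Mdm2 was -1.01. It was the only 1 of 10 members to pass, as 2.08% of all genes did downward. Mdm2 and Ccng1 were lower without overlap, as 28.1% of all genes were, while no member was higher without overlap (2.06% of genes). Ccng1 differed by -0.70 (SE 0.24, adjusted p = 0.114). Without WT replicate 1 the Mdm2 difference was -1.13 with an adjusted p of 0.0651. In DM against Atm MT, Mdm2 fell by 0.86 (SE 0.19, limma adjusted p = 0.0278), again the only member to pass, as 6.05% of all genes did and 4.52% did downward. Mdm2 and Trp53inp1 were lower there without overlap, as 9.5% of genes were, and no member was higher without overlap, as 2.21% of genes were. This call was lost without Atm MT replicate 4 (adjusted p = 0.0650), DM replicate 1 (0.0778) or DM replicate 3 (0.159), and without Atm MT replicates 1 to 4 (0.0625). B-cell markers summed to 2298 to 3322 TPM in DM against 4041 to 5176 TPM in WT, and all 10 had differences below 0, of which 1 passed. All 10 neutrophil markers were above 0 in DM against WT, with a median of 1.53, and none passed in limma. In DM against Atm MT, 4 of 6 erythroid markers rose (median 2.76), as did 3 of 7 natural killer markers (1.32), 2 of 10 neutrophil markers (1.12) and 2 of 5 platelet markers (0.90), against 1.54% of all genes. In the same comparison 2 of 10 B-cell markers and 1 of 11 macrophage markers fell. All 10 B-cell markers were below 0 there, with a median of -0.51, and all 11 macrophage markers, with a median of -1.71. The part of these marker shifts in the Mdm2 and Mdm4 differences was not tested.

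Mdm4 also fell in DM against Atm MT. It was at 26.9, 13.8 and 25.2 TPM in DM and fell by 1.32 (SE 0.29, limma adjusted p = 0.0299), the only regulator of 23 to pass, as 4.52% of all genes did downward. The Mdm4 call was lost without Atm MT replicate 4 (adjusted p = 0.0673), DM replicate 1 (0.0682) or DM replicate 3 (0.187), and without Atm MT replicates 1 to 4 (0.0541). Sf3b1 MT, at 22.7, 13.1 and 29.6 TPM, overlapped with DM and lay below every WT library, with a difference from WT of -1.01 (SE 0.33, adjusted p = 0.342). Of the other p53 targets, 0 were higher and 3 lower in DM against WT, where 0.152% of all genes were higher and 2.08% lower: Cd80 fell by 1.88, Fas by 1.67 and Tap1 by 0.86, with limma adjusted p-values of 0.0118, 0.0192 and 0.0451. Without WT replicate 1 their adjusted p-values were 0.0614, 0.0893 and 0.189, and after median-ratio scaling 0.0604, 0.0819 and 0.126. Fas also lost its call without DM replicate 1 (0.0780). Tap1 lost it in 12 of 15 omissions of a library, those other than Atm MT replicates 1 and 6 and DM replicate 6, with adjusted p-values from 0.0501 to 0.189.

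**Figure D3:**
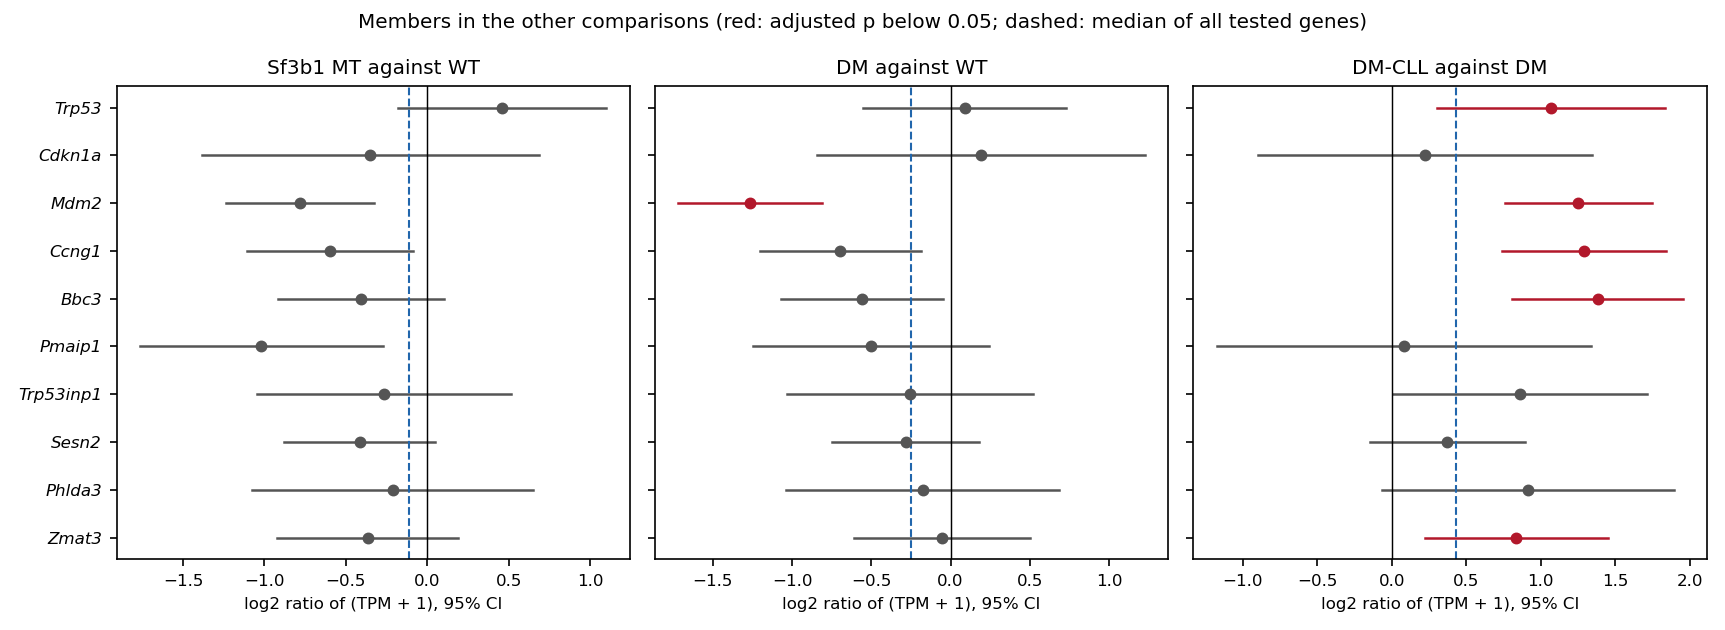
Differences of the 10 members on the log2(TPM + 1) scale with 95% confidence intervals for the Sf3b1 lesion alone against WT, for DM against WT and for DM-CLL against DM; red marks a limma adjusted p below 0.05 and the dashed line is the median of all tested genes. Mdm2 is red in opposite directions in DM against WT and in DM-CLL against DM. In DM-CLL against DM 4 further members are red and all 10 lie above 0, as 80.1% of all genes do, with Pmaip1 at 0.08.

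In the leukaemic libraries 5 of the 10 members rose against DM, the non-leukaemic group with the same lesions: Bbc3, Ccng1, Mdm2, Trp53 and Zmat3. None fell, while 31.2% of all genes passed, 29.2% higher and 1.97% lower. All genes together were shifted upward, with a median of 0.43, and the median of the members was 0.89. Without overlap, 8 of 10 members were higher, as 47.3% of all genes were, and none was lower, as 6.05% of genes were. Median-ratio scaling removes the shift (median of all genes -0.03), and the split of all calls then went from 2889 higher and 195 lower to 873 higher and 749 lower. Under that scaling Bbc3, at 1.001 (adjusted p = 0.0220), and Mdm2, at 0.77 (0.0187), passed among the members.

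Mdm2 was at 17.6 and 15.6 TPM in DM-CLL replicates 4 and 5, within the range of the WT libraries. It rose by 1.25 (SE 0.23, limma adjusted p = 0.00115) against DM and differed by -0.01 (SE 0.23, adjusted p = 0.984) from WT. Bbc3 was at 5.80 and 4.11 TPM and rose by 1.38 (SE 0.27, adjusted p = 0.00160). Ccng1, at 50.3 and 49.1 TPM, had its highest levels of the series in these libraries and rose by 1.29 (SE 0.26, adjusted p = 0.00195), although under median-ratio scaling it was at 0.77 with an adjusted p of 0.0646. Mdm2 and Bbc3 passed in all 23 alternatives and Ccng1 in 22.

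Trp53 was far apart in the DM-CLL libraries, at 85.9 TPM in replicate 4 and 43.2 TPM in replicate 5, both above every DM library. It rose by 1.07 (SE 0.36, limma adjusted p = 0.0346) against DM, but without DM-CLL replicate 4 the difference was 0.58 (adjusted p = 0.375) and without DM replicate 1 it was 0.78 (0.138). Zmat3, at 2.77 and 3.45 TPM, rose by 0.84 (SE 0.29, adjusted p = 0.0373). That call was lost without DM replicate 1 (0.0995), DM replicate 3 (0.102), DM-CLL replicate 4 (0.0921) or DM-CLL replicate 5 (0.149). DM-CLL replicate 4 also held the high erythroid and T-cell markers, and their part in its Trp53 level was not tested. Both DM-CLL libraries were lower in plasma-cell markers, at 100 and 131 TPM against 219 to 232 TPM in DM, and 3 of 5 fell while 1 rose. Of the 10 B-cell markers 3 fell, among them Cr2 by 2.29 and Fcer2a by 2.34, and 2 rose, and the part of these shifts in the members' differences was not tested. Leaving out DM replicate 1 or DM-CLL replicate 4 took the number of members that rose from 5 to 3.

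The remaining members gave no call. Cdkn1a was at 5.14 and 7.27 TPM in DM-CLL, a difference from DM of 0.22 (SE 0.53, limma adjusted p = 0.769). Pmaip1 differed most between the 2 leukaemic libraries, at 7.67 TPM in replicate 4, the lowest level of the series, and 62.2 TPM in replicate 5, the highest. Its difference from DM was 0.08 (SE 0.59, limma adjusted p = 0.929) and ran from -1.352 to 1.515 over the alternatives. Phlda3 was at 2.87 and 1.14 TPM, Trp53inp1 at 24.7 and 33.8 TPM and Sesn2 at 6.84 and 9.42 TPM. Their differences from DM were 0.91 (SE 0.46), 0.86 (SE 0.40) and 0.37 (SE 0.25), with adjusted p-values of 0.141, 0.112 and 0.253. Cdkn1a and Pmaip1 were the members whose DM-CLL libraries overlapped with DM.

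Against WT, 1 of 10 members rose in DM-CLL, Trp53, as 10.3% of all genes did, and none fell, as 2.81% of genes did. It rose by 1.16 (SE 0.36, limma adjusted p = 0.0446), with a median of 0.19 for all genes. The Trp53 call held in 11 of 23 alternatives, and the difference was 0.67 (adjusted p = 0.423) without DM-CLL replicate 4, 0.92 (0.153) without WT replicate 1 and 1.18 (0.0853) without WT replicate 3. It was also lost, at the same difference of 1.16, without Sf3b1 MT replicate 1 (0.0556) or Atm MT replicate 1 (0.0551), replicate 4 (0.0567) or replicate 5 (0.0536), libraries that enter through the shared spread alone. Bbc3, Ccng1, Phlda3, Trp53 and Zmat3 were higher than WT without overlap, as 32.2% of all genes were. Bbc3 differed by 0.82 (SE 0.27, adjusted p = 0.0558), Zmat3 by 0.78 (SE 0.29, adjusted p = 0.0890) and Ccng1 by 0.59 (SE 0.26, adjusted p = 0.154).

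Of the 33 other p53 targets 7 (21.2%) rose and 0 fell in DM-CLL against DM, where 29.2% of all genes rose and 1.97% fell. Above 0 were 26 of 33 (78.8%), beside 80.1% of all genes, and the median was 0.15, beside 0.43. The list's shares thus lay below those of the whole table, and after median-ratio scaling its median was -0.34, beside -0.03. The 4 with the smallest p were Cd80, the B-cell costimulatory ligand, which rose by 2.67 (SE 0.33, limma adjusted p = 4.7e-05), Polk, a translesion DNA polymerase, by 1.38 (SE 0.24, adjusted p = 0.000701), Fdxr, a mitochondrial reductase, by 0.87 (SE 0.20, adjusted p = 0.00473), and Aen, an apoptotic nuclease, by 1.09 (SE 0.25, adjusted p = 0.00507). Cd80 was at 29.5 and 31.9 TPM in DM-CLL and at 3.09 to 5.28 TPM in DM. Aen lost its call without DM-CLL replicate 4 (adjusted p = 0.0516). Under median-ratio scaling Fdxr was at 0.40 (adjusted p = 0.137) and Aen at 0.60 (0.113).

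Among the 23 regulators 9 (39.1%) rose and 0 fell in DM-CLL against DM, beside 29.2% and 1.97% of all genes. All 23 were above 0, as 80.1% of all genes were, with a median of 0.72 beside 0.43. After median-ratio scaling 18 of 23 were above 0, with a median of 0.27 beside -0.03, and 3 passed, as 1622 of 9898 genes did. From 3 to 6 passed without 1 of the DM or DM-CLL libraries, and 3 without DM replicate 1 or DM-CLL replicate 4. Mdm4 was at 73.6 and 118 TPM and rose by 2.09 (SE 0.38, limma adjusted p = 0.000894). Ep300, the acetyltransferase and coactivator of p53, rose by 1.49 (SE 0.29, adjusted p = 0.00137), to 28.0 and 36.5 TPM from 8.44 to 13.6 TPM in DM. Cdkn2a, the locus of Arf, which inhibits Mdm2, and of the kinase inhibitor p16, rose by 2.33 (SE 0.47, adjusted p = 0.00201), to 7.40 and 7.96 TPM from 0.50 to 1.17 TPM, and gene-level values do not separate its products. Rad50, of the complex that brings Atm to breaks, rose by 0.79 (SE 0.25, adjusted p = 0.0234). The Rad50 call was lost without DM replicate 1 (adjusted p = 0.0622), DM replicate 3 (0.0518), DM-CLL replicate 4 (0.129) or DM-CLL replicate 5 (0.0599), and after median-ratio scaling its difference was 0.31 (0.321). Atm rose by 1.12 (SE 0.39, adjusted p = 0.0378) in these libraries of the Atm-deleted genotype, to 7.78 and 9.20 TPM from 4.08, 2.54 and 3.61 TPM. The Atm call was lost without DM replicate 1 (adjusted p = 0.0537), DM replicate 3 (0.109), DM replicate 6 (0.0539), DM-CLL replicate 4 (0.111) or DM-CLL replicate 5 (0.137), and after median-ratio scaling the difference was 0.67 (0.213).

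Against WT, 2 of the 33 other targets (6.06%) rose in DM-CLL and 2 fell, beside 10.3% and 2.81% of all genes. Rap2b, a small GTPase, rose by 1.23 (SE 0.28, limma adjusted p = 0.00688) and Aen by 0.80 (SE 0.25, adjusted p = 0.0479). Fas fell by 2.23 (SE 0.34, adjusted p = 0.000383), to 2.61 and 3.72 TPM, and Tap1 fell by 0.81 (SE 0.24, adjusted p = 0.0324), to 49.96 and 64.5 TPM. The Rap2b and Fas calls held in all the alternatives. The Aen call was lost in 14 of 17 omissions of a library, those other than Atm MT replicates 1, 2 and 4, with adjusted p-values from 0.0521 to 0.233, and the Tap1 call was lost without WT replicate 1 (0.122), WT replicate 3 (0.0620) or DM-CLL replicate 4 (0.249). Of the 23 regulators 1 (4.35%) rose against WT, below the 10.3% of all genes: Cdkn2a, by 1.87 (SE 0.47, adjusted p = 0.0143), and this call was lost without WT replicate 2 (0.0554), WT replicate 3 (0.0618), DM-CLL replicate 4 (0.0928) or DM-CLL replicate 5 (0.0536). The Tap1 and Cdkn2a calls were also lost with library weights (limma adjusted p = 0.0995 and 0.0696). In a fit of the compared groups alone they were lost as well (0.0945 and 0.108). Comparisons with DM-CLL share the DM or WT libraries with those above, so their values are set side by side and not correlated.

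**Figure D4:**
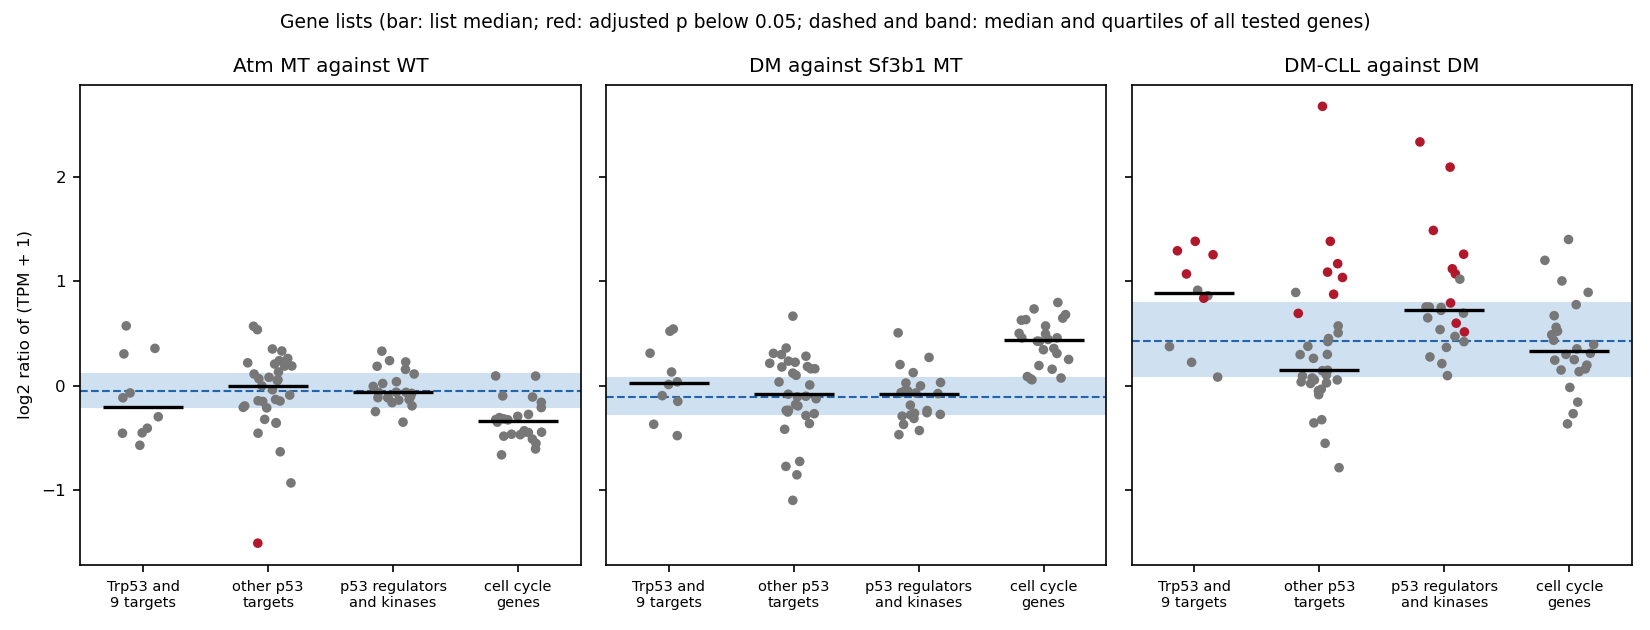
Differences of single genes on the log2(TPM + 1) scale in Atm MT against WT, DM against Sf3b1 MT and DM-CLL against DM, for the 10 members, the other p53 targets, the regulators and kinases of p53 and the cell cycle genes; black bars are list medians, red points have a limma adjusted p below 0.05, and the dashed line and band are the median and quartiles of all tested genes. A single point, Fas, is red in the Atm panels, and the median of the cell cycle list lies below the dashed line in the left panel and above it in the middle one, where it rests on DM replicate 3.

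Ordered by mean level over the 5 groups, most neighbouring groups overlapped for every member. The neighbours that did not overlap were Sf3b1 MT above DM for Mdm2, DM-CLL above WT for Ccng1 and for Bbc3, and DM-CLL above Atm MT for Zmat3. Trp53 was ordered DM-CLL, Atm MT, Sf3b1 MT, DM and WT from high to low, and Mdm2 was ordered WT, DM-CLL, Atm MT, Sf3b1 MT and DM.

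The genes most like each member over the 17 libraries were ranked by the root-mean-square distance of log2(TPM + 1) after centring each gene on its mean. For Mdm2 they were Fgfr1op2, Zfp260 and Hif1a, at distances of 0.208, 0.212 and 0.214, against a spread of 0.486 for Mdm2 itself. For Ccng1 they were Zfand6, Ccdc90b and Zc3h15, at 0.133, 0.140 and 0.156, against its own spread of 0.469. Trp53 was nearest to Dclre1b, Zfp647 and Trmu, at 0.328, 0.342 and 0.345, against its own spread of 0.508. Cdkn1a was nearest to Aqp12, Cish and Rtn4rl1, at 0.449, 0.481 and 0.508, against its own spread of 0.613, and Phlda3 came next at 0.512. Among the members Ccng1 was the closest to Mdm2, at 0.300 and rank 175 of the tested genes, and Trp53 ranked Ccng1 first among the targets, at 0.592 and rank 5927.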

How the data were processed

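PolyA RNA of B cells was sequenced in 17 mouse libraries; the labels' protocols name the PrepEase RNA Spin Kit for extraction and NEBNext Ultra for the libraries. The authors deposited TPM to 2 decimals for 18554 gene symbols, of which 3711 were at 0 in every library. The submitters' processing notes name STAR and mm10; the quantifier, the annotation and any filter are not given in the sources used here. Groups came from the genotype labels. Values were transformed to log2(TPM + 1) and fitted with limma 3.58.1 in R 4.3.3 with a mean trend, two-sided, with Benjamini-Hochberg adjustment over 9898 genes at a threshold of 0.05. Comparisons without DM-CLL used 15 libraries, and those with DM-CLL all 17, so that the DM-CLL libraries share the spread of the other groups. Differences and SE are on that log2 scale, which understates changes of low genes. Figures and tables used matplotlib 3.10.9 and scipy 1.17.1, with numpy 2.4.6 and pandas 2.3.3, in Python 3.11.15. The fits were tested on simulated data with normal spread, with changes placed in genes of higher level. Each simulation changed 200 of 9898 genes and held no shift of all genes. DM-CLL against DM had 3084 calls and a median of 0.43, so the shares below need not hold for it. A change of 1 was recovered for 86% of changed genes for the Atm effect. The share was 73% in Atm MT against WT, 54% in DM against Sf3b1 MT and 39% for the interaction. It was 52% in DM-CLL against DM and 48% in DM-CLL against WT. A member that did not pass may therefore still differ.

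Alternatives were a pseudocount of 0.1, no filter, median-ratio scaling over 7769 genes, library weights, a replicate block, a fit of the compared groups alone, omission of Atm MT replicates 1 to 4 and omission of each library. The members and lists were chosen with earlier results of these data known. Named were all members, listed genes that passed for loss of Atm, up to 4 per list by smallest p in the DM-CLL comparisons, and Atm, Mdm4 and Wrap53. Cd80 and the targets lower in DM against WT were named after their values were seen.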

Additional observations from a re-analysis of the deposited data

Results flagged for a closer look

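Among 12 sets of Atm MT values examined, those of the 10 members, Atm and Mdm4 over 6 libraries, 4 held a library whose gap to the next, divided by the whole range, was above the 95% critical value of 0.625. For normally distributed values chance flags about 5% of sets at that level. The gaps were taken on TPM and not on the log2 scale of the fits, so the number of flags cannot be set against that 5%. Cdkn1a was at 13.35 TPM in Atm MT replicate 1, with the next library at 4.43 TPM and a gap of 0.722 of the range. Sesn2 was at 8.01 TPM in Atm MT replicate 4, with the next at 5.75 TPM (0.628). In Atm MT replicate 6, Trp53inp1 was at 39.41 TPM, with the next at 25.66 TPM (0.689), and Mdm4 was at 97.9 TPM, with the next at 61.8 TPM (0.640). Replicates 1 and 4 also held high macrophage markers and replicate 6 did not; their part in these values was not tested.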

How the results depend on the processing

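Of 79 differences of members and named genes followed under the alternatives, 61 kept their sign in all of them and 18 did not. The 79 leave out many member differences that gave no call outside the comparisons for loss of Atm, and signs reversed there too. Phlda3 in DM against Atm MT reversed in 7 of 22 alternatives. Pmaip1 reversed in 3 of 22 in that comparison and in 4 of 23 in DM-CLL against DM. Trp53 and Zmat3 each reversed in 4 of 22 in DM against WT. Depth is unknown, and with 2 DM-CLL libraries each decides part of the calls. The number of members that passed was 0 in the omissions of single libraries for the Atm effect, Atm MT against WT, DM against Sf3b1 MT, the interaction and Sf3b1 MT against WT, 0 to 2 for DM against Atm MT, 0 to 1 for DM against WT, 3 to 6 for DM-CLL against DM and 0 to 2 for DM-CLL against WT. Over these omissions all-gene calls ran from 7 to 864 in DM against Atm MT and from 10 to 318 in DM against WT. With library weights 1 member passed for the Atm effect and 1 for Sf3b1 MT against WT. Those weights gave 2 for DM against Atm MT, 2 for DM against WT and 0 for DM-CLL against WT. All-gene calls under them numbered 456, 149, 2173, 1933 and 945 of 9898 in that order. In a fit of the compared groups alone 0 members passed for DM against Atm MT and 0 for DM against WT. That fit gave 3 for DM-CLL against DM and 0 for DM-CLL against WT. All genes gave 57, 35, 1644 and 778 calls there, in that order. Without Atm MT replicates 1 to 4, 0 members passed for DM against Atm MT, beside 27 of 9898 genes. Without a filter 3 members passed for DM-CLL against DM and 0 for DM-CLL against WT, beside 3227 and 1497 of 14843 genes. After median-ratio scaling 2 and 0 passed, beside 1622 and 1336 of 9898 genes. Fitted to the compared groups alone, further calls of named genes were lost besides those given above. They were Fas (limma adjusted p = 0.0785) and Tap1 (0.0909) in DM against WT and Mdm4 in DM against Atm MT (0.0622). Fdxr (0.05805) and Rad50 (0.05804) in DM-CLL against DM and Aen in DM-CLL against WT (0.0558) were lost too. The cause was not tested.

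Among the 79, the sign of the following differences, none of them a call, reversed. For the Atm effect, library weights gave -0.0179 for Trp53 and 0.25 for Pmaip1, omission of Atm MT replicates 1 to 4 gave -0.0451 for Cdkn1a and 0.10 for Pmaip1, and median-ratio scaling gave 0.0481 for Ccng1, 0.11 for Pmaip1 and 0.0284 for Phlda3. Median-ratio scaling gave 0.00266 for Ccng1 in Atm MT against WT and 0.0936 in DM against Sf3b1 MT. In the latter, library weights gave 0.0160 for Bbc3, -0.0351 for Trp53inp1 and -0.0661 for Phlda3. In the omissions of single libraries the Atm effect ran from -0.0383 to 0.24 for Trp53, -0.0508 to 0.23 for Cdkn1a, -0.25 to 0.18 for Pmaip1, -0.0577 to 0.33 for Trp53inp1 and -0.16 to 0.0290 for Phlda3. Atm MT against WT ran from -0.23 to 0.0552 for Ccng1 and -0.35 to 0.0174 for Phlda3, and DM against Sf3b1 MT ran from -0.22 to 0.0689 for Ccng1, -0.47 to 0.30 for Trp53inp1 and -0.16 to 0.18 for Phlda3. The interaction for Mdm2 ran from -0.20 to 0.13 and DM-CLL against WT for Mdm2 from -0.21 to 0.12. Median-ratio scaling gave 0.0312 for the Mdm2 interaction, and -0.23 for Cdkn1a and -0.0927 for Sesn2 in DM-CLL against DM.

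Of 16 same-numbered pairs of libraries 5 deviated together with a correlation over 0.1 (range -0.363 to 0.364). Pairs with different numbers were not examined beside them, so this does not settle whether the numbers pair the samples. With the replicate block, 2 members passed in DM against Atm MT, as 751 of 9898 genes did. The Atm effect with the block was 0.0254 for Ccng1, -0.0200 for Trp53inp1, 0.35 for Phlda3 and -0.10 for Mdm4. The block gave 0.20 for Cdkn1a, 0.11 for Ccng1 and 0.37 for Phlda3 in Atm MT against WT, and -0.28 for Trp53inp1 in DM against Sf3b1 MT. The DM-CLL comparisons were not fitted with the block. DM-CLL shares no replicate numbers with DM or WT, only with Atm MT. Over all genes the calls for the Atm effect numbered 148 (27 higher, 121 lower), 90 after median-ratio scaling (45 and 45), 456 with library weights and 662 with the block. After median-ratio scaling the split of calls in DM against WT went from 15 higher and 206 lower to 15 and 12.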
